A study of Schmidtea mediterranea with 36 samples.

Results

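The transcripts described here belong to 4 planarian genes of body pigment and heme synthesis: *ALAS*, *PBGD-1*, *KMO-1* and *albino*. They were chosen as every transcript whose ID in the deposited tables holds one of these names in full, which gave 4 of the 71232 transcripts listed and 4 of the 271 IDs that carry a gene name (Smed-ALAS_SmedASXL_012985, Smed-PBGD-1_SmedASXL_002843, Smed-KMO-1_SmedASXL_011861 and Smed-albino_SmedASXL_008180). The transcripts were picked by name, with earlier results of these data known, and all 4 passed the filter on low values at every time point. RNA was sequenced from *alx-3(RNAi)* and *control(RNAi)* animals of the asexual CIW4 strain of *Schmidtea mediterranea*, in 36 libraries. Each group had 3 libraries per time point. Tail fragments, cut below the pharynx, were sampled at 5 times in hours post amputation (HPA), from 0.5 HPA over 6, 24 and 48 HPA to 72 HPA, and a sixth set came from intact animals. All animals, controls included, had been fed double-stranded RNA 9 times before sampling. The *alx-3(RNAi)* group was fed double-stranded RNA against *alx-3*, which encodes a homeobox transcription factor, and the *control(RNAi)* group was fed double-stranded RNA against *GFP*, a jellyfish gene that planarians lack. Feeding reaches the whole animal, so the knockdown was not restricted to a cell type.

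Planarian body color comes from pigment cells under the epidermis that hold porphyrins, the ring-shaped precursors of heme, together with ommochromes, which are made from tryptophan. *ALAS* encodes aminolevulinate synthase, the first and usually rate-limiting enzyme of the heme and porphyrin pathway, and *PBGD-1* encodes porphobilinogen deaminase, which acts further down the same pathway. *KMO-1* encodes kynurenine monooxygenase, an enzyme on the route from tryptophan to ommochromes. *albino* encodes a forkhead transcription factor known to be needed for porphyrin-based body pigment in planarians. Heme is made in other cells too, so *ALAS* and *PBGD-1* RNA need not come from pigment cells alone. In whole fragments, more or fewer cells of a type and more or less RNA per cell cannot be told apart.

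The summed normalized counts of a library ran from 50851868 to 70937400 with a median of 58475718, and at every time point the median fold change of all tested transcripts was close to 0. The knockdown target itself was lower at all 6 time points, with *alx-3* at 23.6% to 40.8% of the control mean (limma, Benjamini-Hochberg adjusted p between 6.84e-08 and 0.000148). Totals were larger in *alx-3(RNAi)* libraries than in controls on average. Rescaling all libraries to one total therefore moved the median of all transcripts by -0.09, -0.14, -0.08, -0.16 and -0.20 on the log2 scale in fragments in the order of time, and by -0.08 in intact animals. The eye gene *ovo*, a check of the labelled tissue, stood between 38.7 and 65.3 normalized counts in intact animals and at no more than 29.2 in any tail fragment.

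The enzyme transcripts were higher in *alx-3(RNAi)* animals, while *albino* was not. *ALAS* passed the test at 6 of 6 time points, *PBGD-1* at 5 and *KMO-1* at 4, all in the direction of higher RNA after *alx-3(RNAi)*. Under the deposited scaling, every *alx-3(RNAi)* library lay above every control library for these 3 genes at all 6 time points. At any one time point, 13% to 19.3% of tested transcripts lay apart in this direction. With one total for all libraries, *KMO-1* overlapped between groups at the earliest time and at 6 HPA. *albino* passed the test once, in intact animals, where it was lower in *alx-3(RNAi)*.

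**Figure D1:**
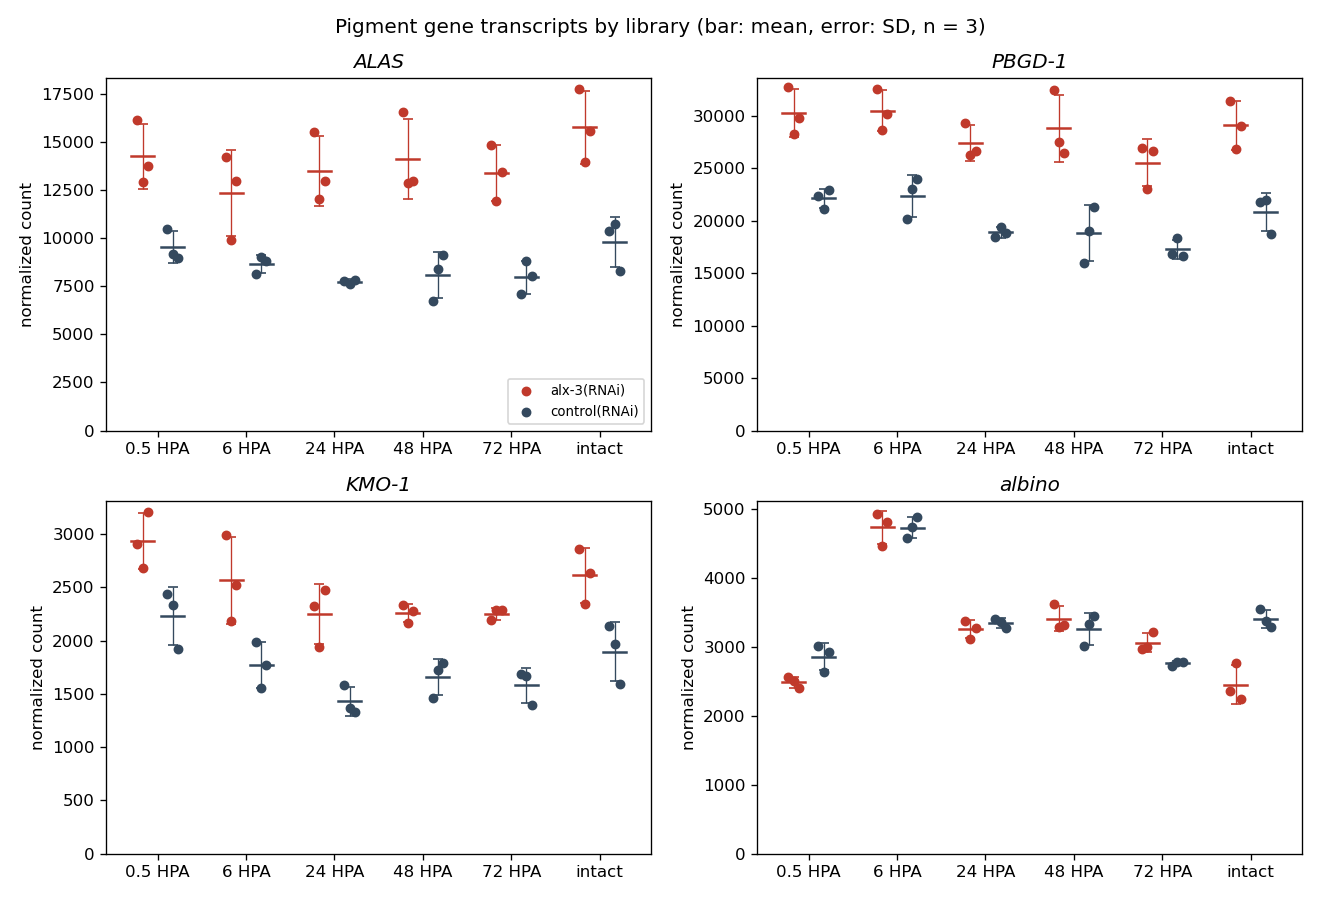
Normalized count (linear axis from 0) of each transcript in every library by time point, *alx-3(RNAi)* left of *control(RNAi)*, with points for libraries, bars for means and error bars for the SD (n = 3). Under the deposited scaling, which is shown, the groups are apart at every time point for *ALAS*, *PBGD-1* and *KMO-1*. For *albino* they are apart at 0.5 HPA, at 72 HPA and in intact animals.

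*ALAS* gave the largest fold changes of the 4 genes at 5 of 6 time points, with *KMO-1* ahead at 6 HPA. At 0.5 HPA its normalized counts were 16132, 12893 and 13717 in *alx-3(RNAi)* libraries, against 10459, 9192 and 8939.8 in *control(RNAi)* libraries. At 6 HPA they were 14228, 9871 and 12955 after *alx-3(RNAi)*, against 8129.8, 9005 and 8827 in controls. The gap was narrowest here, since replicate 2 of *alx-3(RNAi)* stood close to the highest control. By 24 HPA *ALAS* had 15487, 12008 and 12941 normalized counts in *alx-3(RNAi)* libraries, against 7776, 7588 and 7821 in controls. At 48 HPA the *alx-3(RNAi)* libraries had 16523, 12870.3 and 12972, against 6747, 8407 and 9094 in controls. At 72 HPA they had 14836, 11908 and 13406, against 7089.5, 8790.4 and 8014 in controls. From 6 to 72 HPA the highest control library thus had 9094 and the lowest *alx-3(RNAi)* library 9871. In intact animals, *ALAS* stood at 17741, 13925 and 15578 normalized counts in *alx-3(RNAi)* libraries and at 10360.0, 10734 and 8281 in control libraries.

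The log2 fold change of *ALAS* was 0.58 (SE 0.0862) at 0.5 HPA, 0.50 (SE 0.111) at 6 HPA and 0.79 (SE 0.0786) at 24 HPA, with limma adjusted p of 0.00375, 0.0386 and 0.000279. It was 0.81 (SE 0.121) at 48 HPA, 0.75 (SE 0.0848) at 72 HPA and 0.69 (SE 0.117) in intact animals, with adjusted p of 0.00144, 4.85e-05 and 0.0231. The mean *ALAS* level after *alx-3(RNAi)* was thus between 143% and 175% of the control mean. At 48 HPA, 1.85% of tested transcripts had a larger fold change than *ALAS*, and at 6 HPA 5.01% did. The calls at 6 HPA and in intact animals were less firm than the other 4. At 6 HPA the call was lost with one total for all libraries (0.36, adjusted p 0.102), with quantile normalization (0.38, adjusted p 0.0823), and without any single library other than *alx-3(RNAi)* replicate 2 (adjusted p between 0.0594 and 0.151). In intact animals it was lost without any single library other than *alx-3(RNAi)* replicate 2 (adjusted p between 0.0655 and 0.142).

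*PBGD-1*, the later enzyme of the same pathway, followed *ALAS* with smaller fold changes at every time point. Its normalized counts at 0.5 HPA were 32703, 28246 and 29727 in *alx-3(RNAi)* libraries, against 22328, 21085 and 22888 in *control(RNAi)* libraries. At 6 HPA, *alx-3(RNAi)* libraries had 32504, 28622 and 30190.4, against 20112, 23014 and 23972 in controls. At both early times the lowest *alx-3(RNAi)* library was well above the highest control. At 24 HPA the counts were 29315, 26218 and 26589.6 after *alx-3(RNAi)*, against 18392, 19408 and 18856 in controls. At 48 HPA they were 32419, 27503 and 26408 after *alx-3(RNAi)*, against 15976, 19047 and 21298 in controls. At 72 HPA they were 26917, 22958 and 26659 after *alx-3(RNAi)*, against 16831, 18329 and 16588 in controls. The spread among controls was widest at 48 HPA and narrowest at 24 HPA. In intact animals, *PBGD-1* had 31432, 26783 and 29049.7 normalized counts in *alx-3(RNAi)* libraries, against 21801, 21954 and 18709 in controls.

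In limma's fits the log2 fold change of *PBGD-1* was 0.45 (SE 0.0675) at 0.5 HPA, 0.45 (SE 0.0802) at 6 HPA and 0.53 (SE 0.055) at 24 HPA, with adjusted p of 0.00388, 0.0140 and 0.000348. It was 0.62 (SE 0.112) at 48 HPA and 0.56 (SE 0.0694) at 72 HPA, with adjusted p of 0.00561 and 9.9e-05. In intact animals the value was 0.48 (SE 0.0983) with an adjusted p of 0.0505, just outside the threshold of 0.05, although the 3 libraries of each group did not overlap. Leaving out *alx-3(RNAi)* replicate 1 ended the calls at 6 HPA (0.40, adjusted p 0.0581) and at 48 HPA (0.53, adjusted p 0.0505), and leaving out control replicate 1 ended the call at 6 HPA (0.37, adjusted p 0.0510). Rescaling to one total brought the value in intact animals inside the threshold (0.40, adjusted p 0.0232).

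*KMO-1* represents the ommochrome branch and was also higher in *alx-3(RNAi)* libraries at every time point. At 0.5 HPA it had 2906, 2682 and 3211 normalized counts in *alx-3(RNAi)* libraries, against 2434, 2338 and 1920.0 in *control(RNAi)* libraries. At 6 HPA it had 2991, 2183 and 2519 after *alx-3(RNAi)*, against 1984, 1557 and 1769 in controls. At both times the lowest *alx-3(RNAi)* library, replicate 2, stood close to the highest control, replicate 1. With one total for all libraries, that *alx-3(RNAi)* library fell below that control at both times, so that the groups overlapped. As CPM, a part of the library's summed normalized counts, the values were 47.2 against 47.9 at 0.5 HPA. At 6 HPA they were 36.2 against 36.6. At 24 HPA the counts were 2327, 1936 and 2479 in *alx-3(RNAi)* libraries, against 1585, 1366 and 1333 in controls. At 48 HPA they were 2331, 2165 and 2281 in *alx-3(RNAi)* libraries, against 1465, 1726 and 1786 in controls. At 72 HPA they were 2188, 2286 and 2283 in *alx-3(RNAi)* libraries, against 1688, 1664 and 1393 in controls. At 48 and 72 HPA the *alx-3(RNAi)* libraries were close to each other, with SDs of 85.4 and 55.8 normalized counts, against SDs of 171 and 164 among controls. Intact animals had 2859, 2344 and 2632 normalized counts after *alx-3(RNAi)* and 2135, 1963 and 1591 after *control(RNAi)*.

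The log2 fold change of *KMO-1* passed limma's test at 4 time points. The values were 0.53 (SE 0.116) at 6 HPA, 0.65 (SE 0.0945) at 24 HPA, 0.45 (SE 0.104) at 48 HPA and 0.52 (SE 0.0802) at 72 HPA, with adjusted p of 0.0349, 0.00244, 0.0237 and 0.000642. It missed the threshold at 0.5 HPA with 0.40 (SE 0.0956, adjusted p 0.0525) and in intact animals with 0.47 (SE 0.114, adjusted p 0.0983). The 95% intervals of these values were 0.19 to 0.60 and 0.22 to 0.72, and both lay above 0. At 6 HPA the call was lost with one total (0.39, adjusted p 0.125), with quantile normalization (0.44, adjusted p 0.112) and without any single library other than *alx-3(RNAi)* replicate 2 or control replicate 1 (adjusted p between 0.0895 and 0.129). At 48 HPA it was lost without any one of the *alx-3(RNAi)* replicates or without control replicate 1 (adjusted p between 0.0534 and 0.128).

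*albino* moved apart from the enzymes. At 0.5 HPA it had 2562, 2504 and 2403 normalized counts in *alx-3(RNAi)* libraries, against 3019, 2633 and 2934 in *control(RNAi)* libraries. At 6 HPA it had 4926, 4473 and 4818 after *alx-3(RNAi)*, against 4580.2, 4737 and 4884 in controls. Under the deposited scaling the groups did not overlap at 0.5 HPA, where *alx-3(RNAi)* libraries were the lower ones, and overlapped at 6 HPA. At 24 HPA the counts were 3385, 3114 and 3283 in *alx-3(RNAi)* libraries, against 3411, 3367 and 3270.3 in controls. At 48 HPA they were 3624, 3291 and 3325 in *alx-3(RNAi)* libraries, against 3009, 3335 and 3448 in controls. At 72 HPA they were 2968, 2994 and 3225 in *alx-3(RNAi)* libraries, against 2731, 2787 and 2780.1 in controls. The groups overlapped at 24 and 48 HPA, and at 72 HPA the *alx-3(RNAi)* libraries stood above all controls. In intact animals *albino* had 2358, 2769 and 2239 normalized counts in *alx-3(RNAi)* libraries, against 3557, 3379 and 3288 in controls, so that every *alx-3(RNAi)* library was below every control.

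In intact animals *albino* was lower after *alx-3(RNAi)*, at 72.1% of the control mean (log2 fold change -0.48, SE 0.0901, limma adjusted p 0.0366). This call was lost without any single library other than *alx-3(RNAi)* replicate 2 (adjusted p between 0.130 and 0.213), while the value stayed between -0.57 and -0.41. In tail fragments no *albino* value passed the test. The log2 fold changes were -0.20 at 0.5 HPA (adjusted p 0.189), 0.00 at 6 HPA (adjusted p 0.997), -0.04 at 24 HPA (adjusted p 0.752), 0.07 at 48 HPA (adjusted p 0.787) and 0.15 at 72 HPA (adjusted p 0.155), of which those at 6, 48 and 72 HPA changed sign with one total for all libraries. Their 95% intervals ran from -0.36 at 0.5 HPA to 0.28 at 72 HPA.

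**Figure D2:**
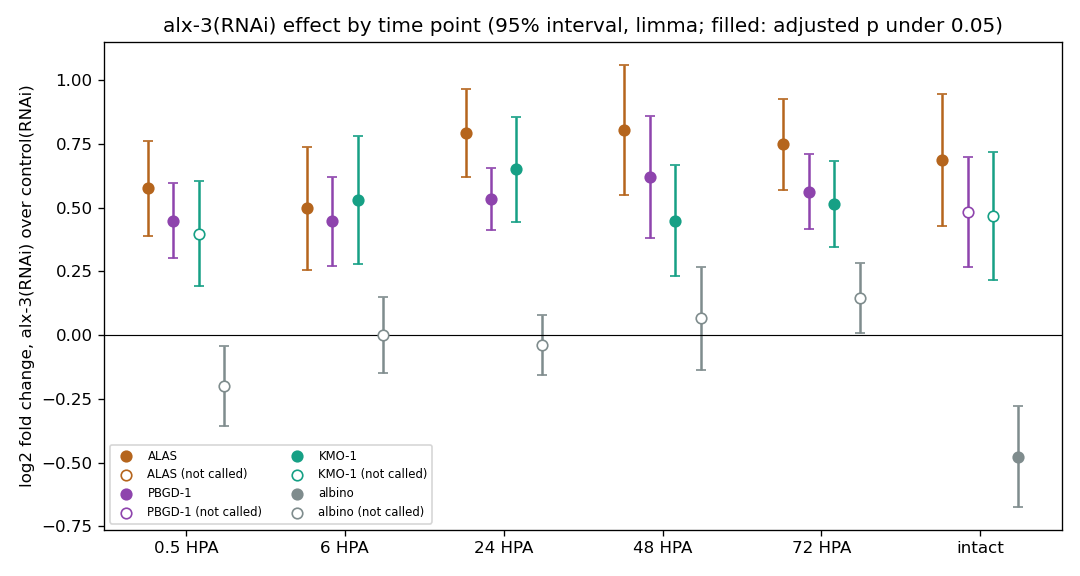
Log2 fold change, *alx-3(RNAi)* over *control(RNAi)*, of each transcript by time point, with 95% intervals from limma and filled points where the adjusted p was under 0.05. *ALAS* is filled at 6 of 6 time points between 0.50 and 0.81, and *albino* is filled only in intact animals at -0.48.

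Counts of called genes are given beside the share of all tested transcripts called in the same direction. At 0.5 HPA, 2 of 4 genes were called higher, against 1.24% of tested transcripts. At 6 HPA 3 of 4 were, against 1.72%, at 24 HPA 3 of 4 against 4.28%, at 48 HPA 3 of 4 against 2.36%, and at 72 HPA 3 of 4 against 10.5%. In intact animals 1 of 4 was called higher, against 0.384%, and 1 of 4 was called lower, against 0.501%. The share of called transcripts was thus largest at 72 HPA and smallest in intact animals. None of the 4 was called lower at 0.5, 6, 24 or 48 HPA (0.794%, 0.621%, 3.01% and 1.11% of tested transcripts) or at 72 HPA (2.62%). Overlap between groups is given here under the deposited scaling, and the shares of all transcripts without overlap were counted under it only. With *alx-3(RNAi)* the higher, groups did not overlap for 3 of 4 genes from 0.5 to 48 HPA. Of tested transcripts, 13.2%, 14.5%, 13.5% and 13% did the same at these times. At 72 HPA this held for 4 of 4 against 19.3%, and in intact animals for 3 of 4 against 13%. With *alx-3(RNAi)* the lower, groups did not overlap for *albino* at 0.5 HPA (8.53% of tested transcripts) and in intact animals (9.31%), and for none of the 4 at 6, 24, 48 and 72 HPA (8.67%, 12.6%, 8.98% and 11.3%). The balance of these shares turned over with the scaling. Of all called transcripts, those higher in *alx-3(RNAi)* made up 60.9%, 73.5%, 58.7%, 68.1% and 80% in tail fragments in the order of time and 43.4% in intact animals, against 20.4%, 31%, 31.5%, 24.2% and 21.1% in tail fragments and 27.9% in intact animals with one total for all libraries. At 72 HPA, 3.23% of tested transcripts were called higher and 12.1% lower with one total, where *ALAS*, *PBGD-1* and *KMO-1* were still called higher. The median log2 fold change of the 4 genes ranged over time points from 0.42 to 0.59, and that of all tested transcripts stayed between 0.00 and 0.01.

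Whether the effect of *alx-3(RNAi)* differed between time points was tested for each gene in one limma fit over the 36 libraries, which were taken as independent. The F test that the 6 effects were equal passed for *albino* (adjusted p 0.00144), as it did for 1.47% of 27959 transcripts, and did not pass for *ALAS* (adjusted p 0.812), *PBGD-1* (adjusted p 0.910) or *KMO-1* (adjusted p 0.914). For *ALAS* the widest difference was between 48 and 6 HPA, at 0.31 with a 95% interval from -0.07 to 0.69, so that differences of that size between time points were not detectable with these libraries. Of the 15 pairs of time points, 2 differed for *albino*. The log2 difference of its effects was -0.54 for intact animals minus 48 HPA (SE 0.0964, adjusted p 0.00375), a contrast called in 0.522% of transcripts, and -0.62 for intact animals minus 72 HPA (SE 0.0964, adjusted p 0.000557), called in 1.13%. When each pair was fitted on its own 12 libraries, the difference between intact animals and 72 HPA passed (adjusted p 0.0161) and that between intact animals and 48 HPA did not (adjusted p 0.123). Intact animals also differ from tail fragments in holding the head and in not being wounded, and these cannot be told apart from time.

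**Figure D3:**
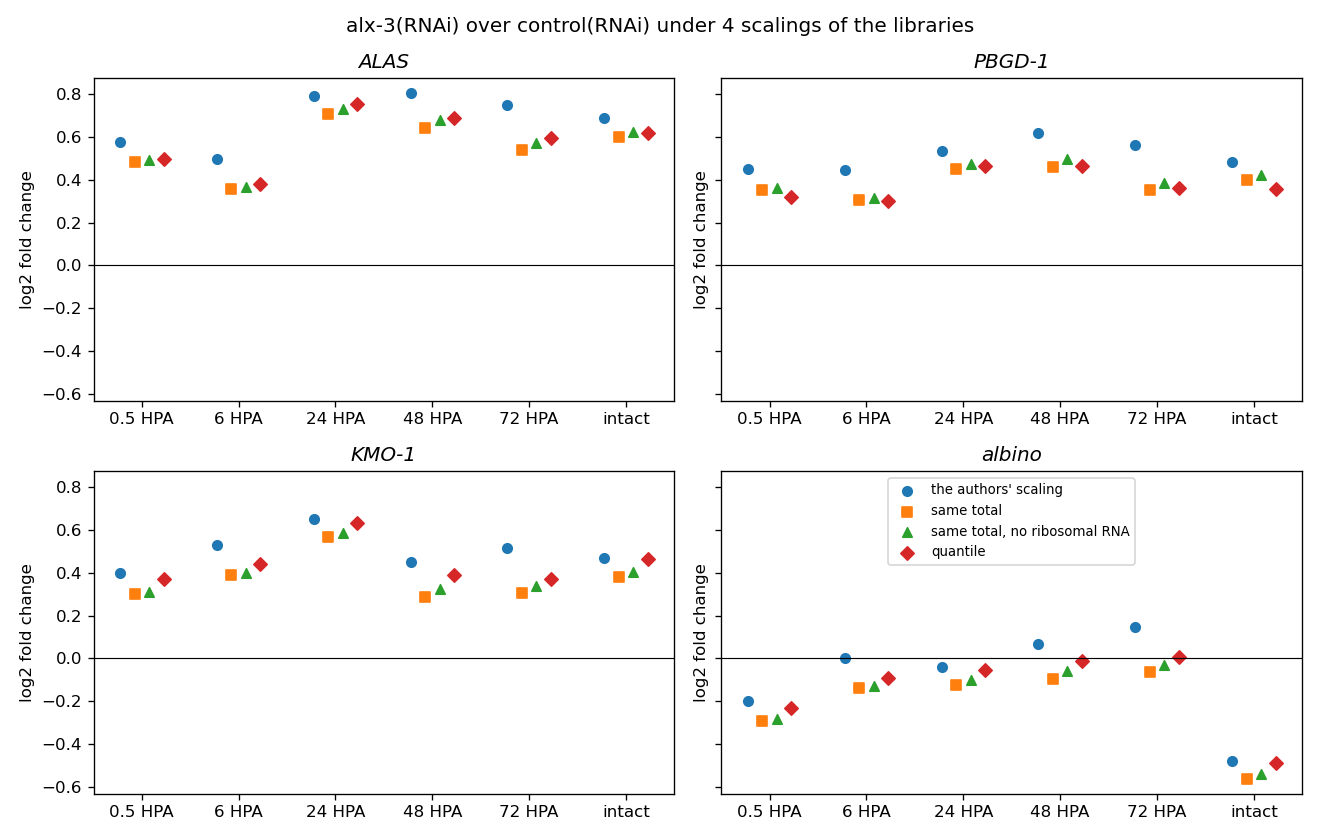
Log2 fold change, *alx-3(RNAi)* over *control(RNAi)*, of each transcript by time point under the deposited scaling, one total for all libraries, one total without ribosomal RNA, and quantile normalization. *ALAS*, *PBGD-1* and *KMO-1* stay above 0 throughout, while *albino* crosses 0 at 6, 48 and 72 HPA, for example to -0.14 at 6 HPA with one total.

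Ratios within a library are unchanged by any factor applied to the whole library, as the deposited scaling and the rescaling to one total are, but not by quantile normalization. They are given from the deposited values. The ratio of *ALAS* to *albino* normalized counts in intact animals was 5.03 to 7.52 in *alx-3(RNAi)* libraries and 2.52 to 3.18 in *control(RNAi)* libraries. At 6 HPA, where the ratio was smallest, it was 2.21 to 2.89 in *alx-3(RNAi)* libraries and 1.77 to 1.90 in controls. The same ratio was higher in every *alx-3(RNAi)* library than in every control at all 6 time points, and so were the ratios of *PBGD-1* and *KMO-1* to *albino*. The mean log2 difference between groups in the *ALAS* ratio ran from 0.50 at 6 HPA to 1.17 in intact animals. The lower *albino* of intact *alx-3(RNAi)* animals (-0.48) is part of that last value. *KMO-1* over *albino* was 0.85 to 1.21 after *alx-3(RNAi)* and 0.48 to 0.60 in controls in intact animals. The mean log2 difference between groups in the ratio of *ALAS* to *PBGD-1* ran from 0.05 at 6 HPA to 0.26 at 24 HPA. *ALAS* over *PBGD-1* was 0.46 to 0.53 in *alx-3(RNAi)* libraries and 0.39 to 0.42 in controls at 24 HPA. In intact animals it was 0.52 to 0.56 against 0.44 to 0.49. That ratio did not overlap between groups at 24, 48 and 72 HPA and in intact animals, and overlapped at 0.5 and 6 HPA. These ratios are a description and were not tested, and the share of other pairs of transcripts with no overlap was not counted.

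**Figure D4:**
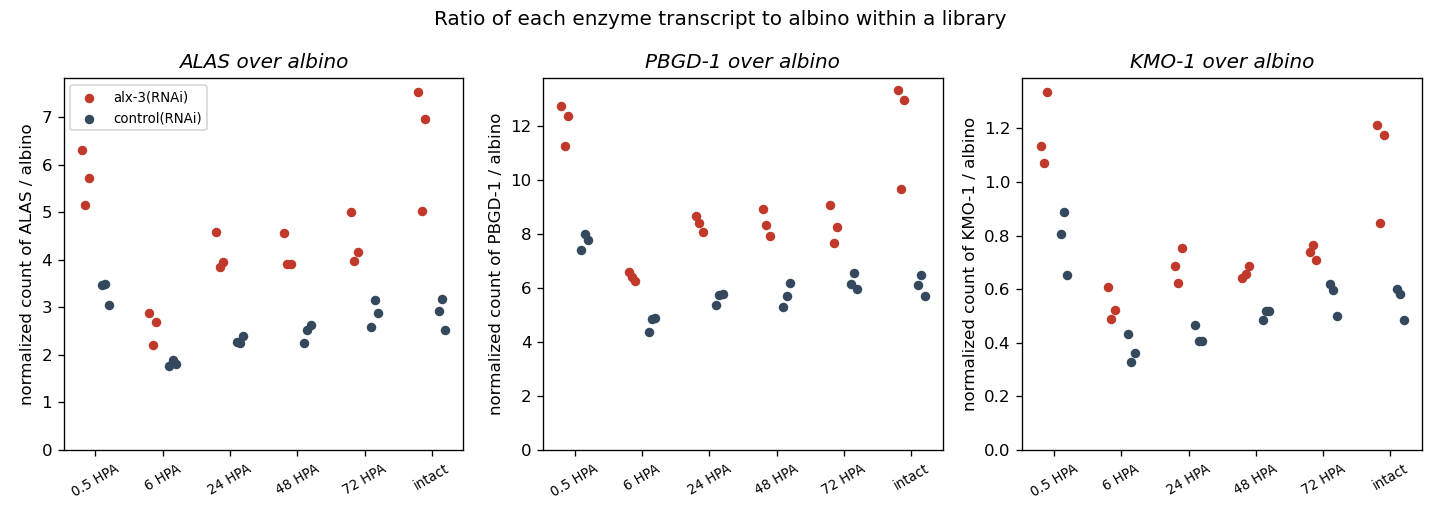
Ratio of the normalized count of *ALAS*, *PBGD-1* and *KMO-1* to that of *albino* in each library by time point (linear axis from 0), *alx-3(RNAi)* left of *control(RNAi)*. The groups are apart in all 3 panels at all 6 time points, for *ALAS* by 5.03 to 7.52 against 2.52 to 3.18 in intact animals.

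Levels over time are a description, since each time point was scaled on its own. They are given as CPM, here the normalized count as a part of the summed normalized counts of its library. *albino* was the gene with the clearest course. Its mean was 43.2, 76.2, 55.8, 51.0 and 47.8 CPM in *alx-3(RNAi)* fragments in the order of time, with 40.6 in intact *alx-3(RNAi)* animals. In *control(RNAi)* fragments it was 53.2, 83.9, 60.8, 54.5 and 49.8 CPM at the same times, with 59.8 in intact controls. The value at 6 HPA was thus 176% of that at 0.5 HPA after *alx-3(RNAi)* and 158% in controls, and in both groups every library at 6 HPA stood above every library at 0.5 HPA. The enzymes showed no such peak. In controls, *ALAS* was lower at 24, 48 and 72 HPA (140.2, 134 and 143 CPM) than at 0.5 HPA (177 CPM), and *PBGD-1* was at 343, 312 and 311 CPM against 410.3 at 0.5 HPA. *KMO-1* had the largest drop, with control means of 41.5 CPM at 0.5 HPA and 25.9 at 24 HPA, which is 62.4% of its level at 0.5 HPA. After *alx-3(RNAi)*, *ALAS* stood between 198 and 247 CPM in tail fragments, *PBGD-1* between 397 and 524, and *KMO-1* between 33.8 and 50.9.

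Library by library, *ALAS* and *PBGD-1* varied together, and *KMO-1* followed them less closely within groups. Over the 36 libraries, with log2 values centered within each time point, Pearson's r was 0.98 between *ALAS* and *PBGD-1*, 0.90 between *ALAS* and *KMO-1* and 0.88 between *PBGD-1* and *KMO-1*. These values hold the shared difference between the groups. With values centered within each group of 3 they were 0.86, 0.55 and 0.38. Between *albino* and the enzymes r was -0.21 to -0.17 centered within time points and 0.19 to 0.47 centered within groups. The value of *PBGD-1* with *KMO-1* centered within groups, 0.38, lay inside that last range. The libraries share their scaling and depth, which adds to any such correlation. Replicate 1 of *alx-3(RNAi)* had the highest *ALAS* and the highest *PBGD-1* of its group at 6 of 6 time points, also as CPM.

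Among 242 other named transcripts, those closest in pattern were found by r centered within time points, with the value centered within groups after it. For *ALAS* they were pXW0053 (0.97, then 0.82), *prog-1f* (0.96, then 0.78) and *activin* (0.95, then 0.83), the last a ligand of the TGF-beta family. For *PBGD-1* they were pXW0053 (0.98, then 0.90), *prog-1j* (0.96, then 0.72) and *prog1g* (0.96, then 0.76), whose family marks progenitors of the planarian epidermis. For *KMO-1* they were *pepck* (0.94, then 0.81), an enzyme of glucose synthesis, *activin* (0.93, then 0.75) and *MyD88-1* (0.92, then 0.79), an adaptor of Toll signaling in other animals. For *albino* they were *teashirt* (0.79, then 0.64), *ets-1* (0.78, then 0.54) and *myoblast_city* (0.76, then 0.58). This ranking holds the difference between the groups, and in it no neighbor of *albino* was a neighbor of an enzyme.

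Of the heme and porphyrin pathway only *ALAS* and *PBGD-1* carried a name in the IDs, and of the ommochrome pathway only *KMO-1*, so other steps of both pathways were not analysed here. *FoxF1* and *ets-1*, also regulators of pigment cells, carried names. *FoxF1*, a forkhead gene needed for planarian pigment cells, had log2 fold changes between -0.05 and 0.11 outside 72 HPA and was higher at 72 HPA (0.36, limma adjusted p 0.00282), a call lost with one total (0.15, adjusted p 0.0635). *ets-1*, which encodes an ETS factor of pigment and other cells, was called at 72 HPA (0.19, adjusted p 0.0433) under the deposited scaling only, with -0.02 there with one total (adjusted p 0.843), and stood at -0.34 in intact animals (adjusted p 0.172). Together with *albino*, the 3 regulators gave 2 higher calls at 72 HPA under the deposited scaling, where 10.5% of tested transcripts were called higher. They gave 1 lower call in intact animals, where 0.501% were called lower, and none at 0.5, 6, 24 and 48 HPA. At 0.5 HPA 1 of the 3 was called lower with one total, with one total without ribosomal RNA and with quantile normalization. Of tested transcripts, 3.74%, 3.14% and 1.71% were called lower there. Their median log2 fold change was -0.34 in intact animals and 0.19 at 72 HPA, against 0.01 for all tested transcripts at both.

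Markers of other cell types differed in direction between lists. Pigment cells belong to the cathepsin-positive cells of planarians, for which 2 markers were named. *cathepsin_L-1-2* was higher at 0.5 HPA (0.35, limma adjusted p 0.0324), 24 HPA (0.38, adjusted p 0.0103) and 72 HPA (0.32, adjusted p 0.00419; 0.11 and adjusted p 0.106 with one total), and stood at 0.11 in intact animals (adjusted p 0.692). *Cathepsin-L-1-1* was called at no time point and stood at -0.14, -0.08 and -0.13 at 0.5, 6 and 24 HPA, and with one total it was called lower at 0.5 HPA (-0.23, adjusted p 0.0131) and 24 HPA (-0.21, adjusted p 0.0238). Their sum was mostly *cathepsin_L-1-2*, with means at 24 HPA of 261704 normalized counts in *alx-3(RNAi)* libraries and 201036 in controls, against 31439 and 34375 for *Cathepsin-L-1-1*. The summed normalized counts at 24 HPA were 273013 to 319963 in *alx-3(RNAi)* libraries and 230085 to 242757 in controls, and in intact animals 234593 to 277332 and 231140.03 to 249612. The sums of the cathepsin markers thus overlapped between groups in intact animals. They did not overlap at any time in tail fragments under the deposited scaling. The margin was narrow at 6 HPA, with a lowest *alx-3(RNAi)* sum of 251278 and a highest control sum of 251012. How often other sums lie apart was not counted. Of 6 epidermal lineage markers, 2 were higher at 0.5 HPA, 3 at 6 and 24 HPA, 2 at 48 HPA, 6 at 72 HPA and 2 in intact animals, with none lower. The shares of all tested transcripts called higher were 1.24%, 1.72%, 4.28%, 2.36%, 10.5% and 0.384% in the same order. With one total 1 of the 6 was higher at 48 HPA and 1 at 72 HPA, against 1.87% and 3.23% of tested transcripts. Their sum in intact animals was 69996 to 72855 in *alx-3(RNAi)* libraries and 52604 to 63774 in controls. Among these *prog-2* was higher at every time point, by 0.45 at 72 HPA (adjusted p 0.0214; 0.24 and adjusted p 0.148 with one total) to 1.74 in intact animals (adjusted p 0.00456). Of 7 stem cell markers 1 was called higher at 6 and 48 HPA and 2 at 72 HPA (1.72%, 2.36% and 10.5% of tested transcripts). At 24 and 72 HPA 1 was called lower (3.01% and 2.62%). With one total 1 was called lower at 6 HPA, 3 at 24 HPA, 2 at 48 HPA and 4 at 72 HPA. The shares of tested transcripts called lower were then 1.25%, 6.89%, 5.84% and 12.1%, and the counts called higher stayed the same. The muscle gene *titin* was lower at 0.5, 6, 24 and 72 HPA, with log2 fold changes between -1.52 at 6 HPA and -1.15 at 0.5 HPA. The neural gene *COE* was called lower at 24 HPA (-0.33) under the deposited scaling. With one total it was also called lower at 0.5 and 72 HPA, where 3.74% and 12.1% of tested transcripts were. At 72 HPA it was also called lower with one total without ribosomal RNA and with quantile normalization (9.66% and 5.08%). The gut gene *NXK2.2* was called higher at 72 HPA (0.26, adjusted p 0.0145; 0.05 and adjusted p 0.592 with one total) and stood at -0.46 in intact animals (adjusted p 0.208). No pharynx or protonephridia marker carried a name. The part of cell composition in the enzyme results was not tested.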

How the data were processed

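Libraries were made from polyA-selected RNA of 18 *alx-3(RNAi)* and 18 *control(RNAi)* samples, which the study's methods describe as biological replicates (n = 3). Per the submitters' processing notes, the authors used Trimmomatic 0.39, Salmon 1.4.0 and DESeq2 1.30.1. The signal the authors deposited is a normalized count per transcript, scaled for each time point separately, although the table headers name it RPKM: each transcript's mean equals the mean normalized count in the authors' result tables. Those tables (log2 fold changes, p-values) were not used further.

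Transcripts with at least 10 in at least 3 of 6 libraries were tested on log2(normalized count + 1) with limma 3.58.1 in R 4.3.3 (two-sided, Benjamini-Hochberg over all tested transcripts, called at an adjusted p under 0.05). Fold changes are on that scale. Effects were compared between time points in one fit over 36 libraries, with transcripts tested in all tables. This fit shares one estimate of spread over the 6 tables, so fits over the libraries of each pair, and the marker lists under the other scalings, were added after the data were seen. Values were not whole multiples of a read, so no count model was run, and depth is known only as summed normalized counts. Pseudocounts of 0.5 and 5, no filter, a mean of at least 50, 3 other scalings, a replicate block and leaving out each library were tried. Named were the 4 genes, *alx-3*, members of fixed marker lists and the 3 named transcripts closest in pattern to each gene. Genes, lists and tests were chosen with earlier results of these data known. Overlapping or near-identical transcripts could share reads. Sequences and transcript lengths were not used here, so levels were not compared between genes.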

Additional observations from a re-analysis of the deposited data

Results flagged for a closer look

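The effect of *alx-3(RNAi)* on *albino* differed between time points in the limma fit over 36 libraries, with an adjusted p of 0.00144 for the F test. The log2 difference was -0.54 for intact animals minus 48 HPA and -0.62 for intact animals minus 72 HPA. Fitted on the 12 libraries of the pair alone, the difference to 72 HPA passed the test (adjusted p 0.0161) and that to 48 HPA did not (adjusted p 0.123). In intact animals every *alx-3(RNAi)* library was below every control, and at 72 HPA every one was above. The sign at 72 HPA turned to -0.06 with one total for all libraries, whereas the F test passed under all 41 alternatives run for it (adjusted p between 7.78e-06 and 0.0292). With 3 libraries per group, no single library was tested as an outlier.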

How the results depend on the processing

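*ALAS*, *PBGD-1* and *KMO-1* at 24 and 72 HPA, *ALAS* and *PBGD-1* at 0.5 HPA and *ALAS* at 48 HPA kept their direction and call in all 15 alternatives. At 6 HPA the number of called genes was 3, and it was 1 with one total, 1 with one total without ribosomal RNA and 1 with quantile normalization. Leaving out one library gave 0 to 3 at 6 HPA, 1 to 3 at 48 HPA (1 without *alx-3(RNAi)* replicate 1) and 0 to 4 in intact animals, where 2 were called with all libraries, 4 without *alx-3(RNAi)* replicate 2 and 0 without any other library. Across all transcripts in intact animals, 288 were called with all libraries, 5425 without *alx-3(RNAi)* replicate 2 and 79 to 134 without one of the others. One fit over 36 libraries gave 4 called genes in intact animals. The cause was not tested. *albino* reversed at 6 HPA to -0.14 with one total, -0.13 without ribosomal RNA and -0.090 with quantile normalization, and leaving out one library gave -0.028 (without *alx-3(RNAi)* replicate 1) to 0.042, also below 0 without *alx-3(RNAi)* replicate 3 and without control replicate 1. *albino* reversed at 48 HPA to -0.096, -0.059 and -0.010 under the same 3 scalings and at 72 HPA to -0.061 and -0.031 under the first 2. The number of pairs of time points that differed was 2, and 1 in fits over the 12 libraries of a pair, an alternative chosen after the data were seen.

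Within time points, replicate numbers did not pair *alx-3(RNAi)* with *control(RNAi)* libraries: deviations of same-numbered libraries correlated at -0.23 to 0.16, and 3 of 18 correlated best with their own number. Whether same-numbered libraries of a group were related across time points was not tested. Replicate 1 was the highest for *ALAS* and *PBGD-1* in *alx-3(RNAi)* at 6 of 6 time points, and for *KMO-1* in controls at 5. If they were related, the 6 time points are not independent. With the replicate number as a block, the number of called genes in intact animals was 4, *KMO-1* at 48 HPA missed the threshold (adjusted p 0.0601), *KMO-1* at 0.5 HPA passed it (adjusted p 0.0144), and the F test for *albino* had an adjusted p of 0.0292. A count model was not run, since whole reads were not recovered from the scaled values.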
